A study of Mus musculus with 17 samples.

Results

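The kidney is both a source and a target of hormones, and 9 genes of this kind were read in every kidney cortex library of the study. They were Ren1 (renin), Agt (angiotensinogen) and Agtr1a (an angiotensin II receptor) of the renin-angiotensin system, Kl (klotho), Pth1r (the parathyroid hormone receptor) and Vdr (the vitamin D receptor) of mineral metabolism, Casr (the calcium-sensing receptor), Egf (epidermal growth factor) and Epo (erythropoietin). They were taken by gene symbol from the deposited table, and all 9 were found among its 48795 genes. Of these, 8 passed the minimum for testing, a mean of at least 1 FPKM (normalized counts per kilobase of exon) in either group of a comparison, and Epo did not. The WT group held 5 libraries of wild type mice. GCERAd (n = 5) is the label of mice with floxed Atf4 alleles (ATF4 fl/fl) and a homozygous CreER transgene driven by a portion of the Ggt1 promoter, which acts in proximal tubules; they were given tamoxifen at 6 weeks of age on 2 consecutive days. TRACK (n = 3) is a transgenic mouse model of kidney cancer that, as background, expresses a constitutively active HIF1A in proximal tubules, and GCERAdT (n = 4) is labelled TRACK with ATF4 KO. By the study's methods, mice were fasted in metabolic cages about a month after the first injection and then killed for tissue. Sex, strain, the ages of the WT, TRACK and GCERAdT mice and any tamoxifen given to WT, TRACK or GCERAdT mice are not given in the sources used here. Kidney cortex holds many cell types besides the proximal tubule in which the deletion was made, and in such bulk tissue fewer cells of a type and less RNA per cell cannot be told apart.

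Renin is released by juxtaglomerular cells in the wall of the afferent arteriole and cleaves angiotensinogen. Angiotensin-converting enzyme then makes angiotensin II, which acts through the type 1 receptor on vessels and tubules. Klotho is the co-receptor that lets FGF receptors respond to FGF23, a bone hormone, and it is made mainly in the distal tubule and at a lower level in the proximal tubule. FGF23 and parathyroid hormone both reduce phosphate uptake in the proximal tubule, while they act in opposite directions on Cyp27b1, the enzyme that makes active vitamin D. The calcium-sensing receptor sits mainly on the thick ascending limb, where claudins form the paracellular path for calcium and magnesium. Egf is made in the thick ascending limb and the distal convoluted tubule, and Epo in rare interstitial fibroblasts of the cortex.

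Totals of counts were between 53688512 and 71364561 per library, so a single count weighed little in any of the 8 tested genes. Levels are given below in CPM, counts relative to the library total after TMM scaling over all 17 libraries. Fold changes are fitted log2 values with their standard error (SE), and adjusted p-values come from edgeR's quasi-likelihood test over all genes tested. A gene was called at an adjusted p of at most 0.05. Atf4 itself was at 79.0, 74.4, 82.3, 86.4 and 100.1 CPM in WT and at 73.1, 56.0, 57.7, 63.2 and 77.0 CPM in GCERAd, a log2 change of -0.38 (SE 0.11, adjusted p = 0.0218) with overlapping groups. In the libraries labelled GCERAdT it was at 79.6, 93.1, 92.8 and 104 CPM against 93.8, 79.8 and 77.2 CPM in TRACK (log2 0.17, SE 0.11, adjusted p = 0.367), so the cortex counts gave no lower Atf4 with that label, and each direction for this group below rests on the label alone.

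The libraries differed in ways that touch the comparisons. Xist was at 149 to 418 CPM in all 5 WT libraries and at most at 6.07 CPM in the other 12. The Y-linked Ddx3y had no count in WT but 49.8 to 80.3 CPM in the other 12. By these genes the WT libraries read as female and the other 12 as male. What goes with this split of sex cannot be told apart from the genotype in any comparison against WT. Processed pseudogenes took 0.032% to 0.038% of the counts in 8 libraries (kind A: WT 1, 3, 4 and 5, GCERAd 1 and 2, GCERAdT 1 and 2) and 0.0574% to 0.0784% in 9 (kind B: WT 2, GCERAd 3, 4 and 5, all of TRACK, GCERAdT 3 and 4). GCERAd 4 and 5 stood apart from GCERAd 1 to 3, with correlations of log2 CPM of 0.969 to 0.979 across that divide and of 0.985 to 0.994 within each side. The extraction protocol names 3 or 4 mice per cohort, and WT 1 and 2, GCERAd 2 and 3, and GCERAdT 2 and 3 may be repeat libraries, although each is labelled as a mouse of its own.

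Per length of merged annotated exons, Pth1r was the highest of the 9 in WT cortex, with a mean of 163 FPKM, and its range of 142 to 191 FPKM overlapped that of Egf (119 to 169, mean 134 FPKM). Agt, Kl and Vdr followed at means of 49.0, 48.2 and 46.9 FPKM, with ranges of 38.9 to 63.3, 42.9 to 54.7 and 41.8 to 52.6 FPKM that overlapped each other. Ren1 came next at 22.4 FPKM (15.3 to 27.3), and Agtr1a (12.1 to 14.2 FPKM) and Casr (8.84 to 17.3 FPKM) were last among the tested genes and overlapped. Pth1r and Egf were thus the highest of the 9 by this measure, and Epo, which reached 0.238 FPKM at most in any library, was close to absent. The order depends on the length used, which joins the exons of all annotated transcripts of a gene. It was 11275 bases for Egf, 9328 for Kl and 2925 for Pth1r. In CPM the WT mean was 1508 for Egf and 476 for Pth1r.

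**Figure D1:**
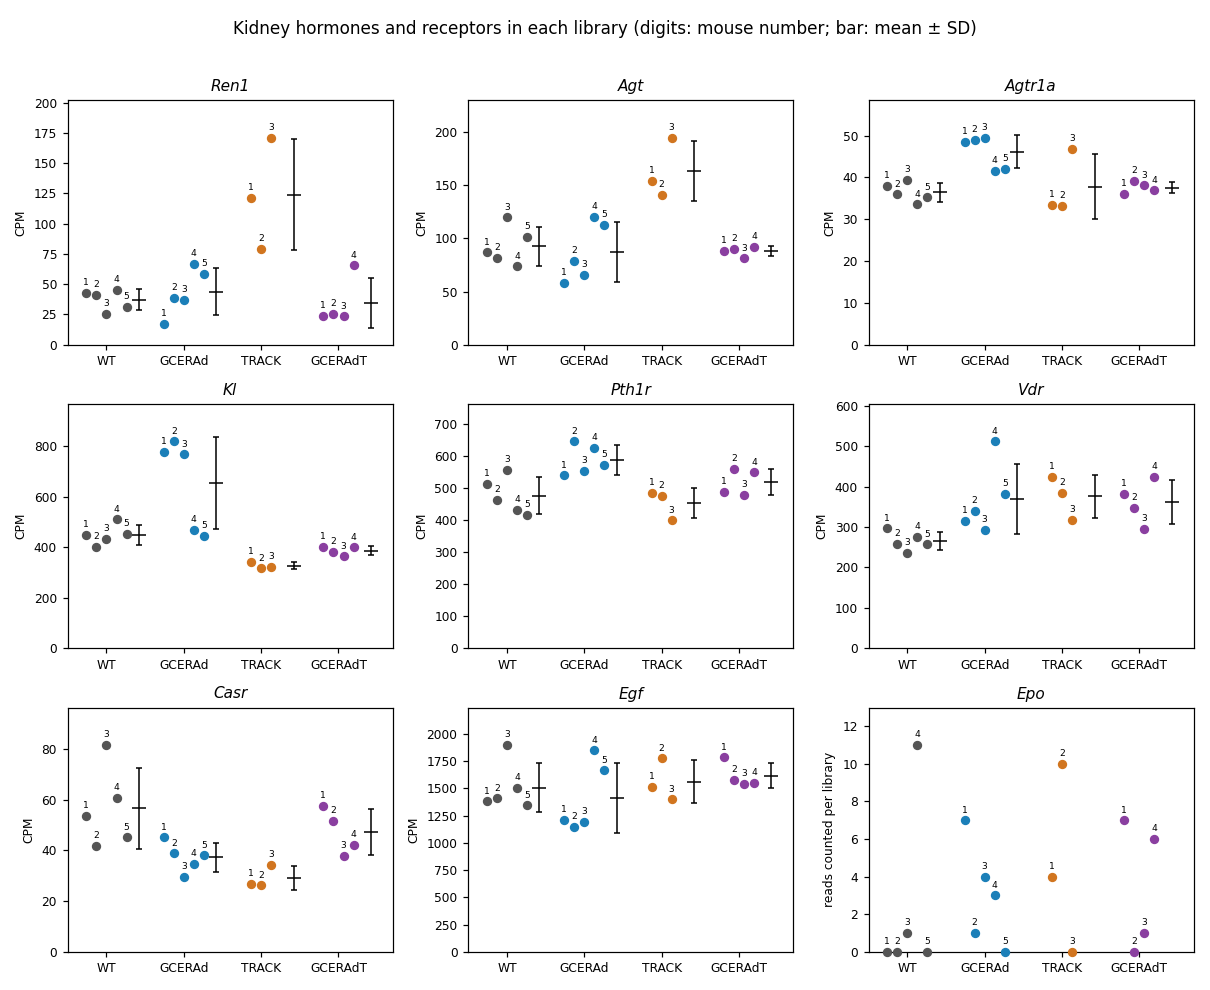
Level of each gene in every library, in CPM (vertical axis, linear from 0) by group, with reads counted per library for Epo; points carry the mouse number and the bar beside them is the mean ± SD. Ren1 and Agt are highest in the 3 TRACK libraries, and Kl in GCERAd falls into 3 libraries at 768 to 820 CPM and a pair at 446 and 469 CPM.

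In GCERAd over WT, 5 of the 8 tested genes were called, beside 27.6% of all 11581 genes tested (14.1% higher and 13.5% lower). Agtr1a, Kl, Pth1r and Vdr rose and Casr fell, while Ren1, Agt and Egf were not called. With both pairs of possible repeat libraries summed, Kl and Pth1r lost the call and 3 of 8 remained, beside 2760 of 11586 genes. In GCERAdT over TRACK, 3 of 8 were called, beside 7.09% of 11928 genes (2.81% higher and 4.28% lower): Ren1 and Agt were lower in the libraries labelled GCERAdT, and Casr was higher. TRACK over WT, which uses the same WT libraries as GCERAd over WT, called 5 of 8 genes beside 45.6% of 11967 (23% higher and 22.6% lower). There Ren1, Agt and Vdr rose and Kl and Casr fell, each without overlap between the groups, as in 44.3% of all genes tested. GCERAdT over GCERAd, which shares its libraries with the first 2 comparisons, called 2 of 8 beside 19.2% of 11816 genes (9.39% higher and 9.79% lower), with Agtr1a and Kl lower in the libraries labelled GCERAdT and neither overlapping, as in 19.5% of genes. With the mouse number as a replicate block, this comparison called 3 of 8 genes, Casr added, and 3770 genes in all; equal numbers also share library kind here, and library kind as a covariate added Casr too (log2 0.31, adjusted p = 0.0251).

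**Figure D2:**
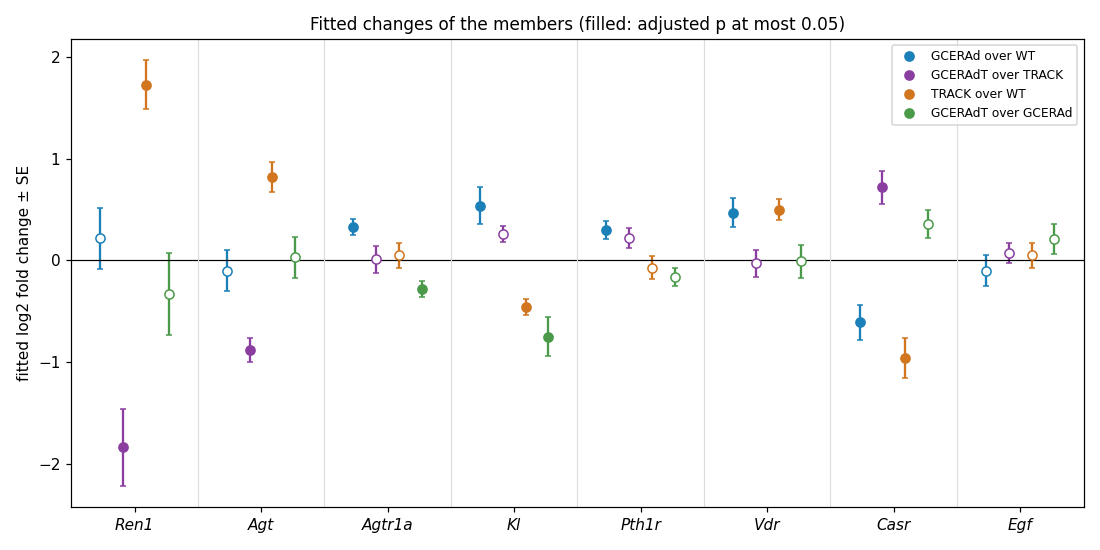
Fitted log2 fold change ± SE (vertical axis) of the 8 tested genes in the 4 comparisons between groups; filled points passed an adjusted p of at most 0.05. Ren1 was 1.73 higher in TRACK than in WT and 1.84 lower in the libraries labelled GCERAdT than in TRACK, and Egf stayed within 0.21 of 0 in all 4.

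Ren1 (ENSMUSG00000070645, chromosome 1, 133350510 to 133360325 on the plus strand, GRCm38) encodes renin, the enzyme that starts the cascade. It was at 42.7, 41.3, 25.4, 45.2 and 31.2 CPM in WT and at 17.4, 38.7, 37.0, 66.9 and 58.5 CPM in GCERAd. The GCERAd values thus lay on both sides of the WT range. TRACK libraries had 121, 79.4 and 171 CPM, and the libraries labelled GCERAdT had 23.6, 25.4, 23.3 and 65.6 CPM. All 3 TRACK values were above every value of the other 14 libraries, and 3 of the 4 GCERAdT values were close to each other, with the fourth nearer to the TRACK range. The mean ± SD was 124 ± 45.9 (n = 3) in TRACK and 37.2 ± 8.48 CPM (n = 5) in WT, and the fitted rise was 3.33-fold (log2 1.73, SE 0.24, adjusted p = 0.000356). In the libraries labelled GCERAdT it was lower than in TRACK by 1.84 on the log2 scale (0.280-fold, SE 0.38, adjusted p = 0.0222). The first call was lost with libraries of kind B only (log2 1.58, adjusted p = 0.0745). The second was lost when TRACK 1, TRACK 3, GCERAdT 1, GCERAdT 2 or GCERAdT 3 was left out (highest adjusted p = 0.0731) with libraries of kind B only (log2 -1.47, adjusted p = 0.175), with a term for library kind (-1.47, adjusted p = 0.0980) and with 3 pairs of possible repeats summed (-1.71, adjusted p = 0.0651). Some mouse strains carry Ren2, a near-identical copy of the gene, whose reads would be counted on Ren1 or not at all.

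Agt (ENSMUSG00000031980, chromosome 8, 124556534 to 124569706, minus strand) encodes the substrate of renin. It was at 87.0, 81.7, 120, 73.5 and 101 CPM in WT and at 58.1, 78.7, 65.4, 120 and 113 CPM in GCERAd. As for Ren1, GCERAd 4 and 5 were the highest of their group, and the change against WT was not called (log2 -0.10, SE 0.20, adjusted p = 0.742). Without GCERAd 4 and 5, a setting chosen after the values were seen, it was -0.45 with an adjusted p of 0.0456. TRACK libraries held 154, 141 and 195 CPM and the libraries labelled GCERAdT 88.2, 90.0, 81.2 and 91.9 CPM, without overlap. The rise in TRACK over WT was 1.76-fold (log2 0.82, SE 0.15, adjusted p = 0.00204), and the fall in GCERAdT over TRACK, drawn from the label, was 0.545-fold (log2 -0.88, SE 0.12, adjusted p = 0.00306). It passed in each of the 7 fits that left out 1 library and with kind B only (log2 -0.90, adjusted p = 0.0401).

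Ren1 and Agt were the members that rose in TRACK over WT and were lower in GCERAdT over TRACK, so a promoter stretch with letters they share is shown. RefSeq promoters (GRCm38.p6) were held for 8 of the 9 genes, all but Agtr1a. On the strand of the gene, TATAAA, the core letters of a TATA box, lay within 250 bases before the RefSeq start in Ren1 and Agt and in no other of the 8, against 7.59% of 32851 promoters, and in the 30 bases shown against 2.14% of them. The letters were chosen after the values had been seen. The windows are chr1:133350629-133350658 (plus strand) and chr8:124569722-124569751 (minus strand), 5′ to 3′, with TATAAA in capitals; the first lies in a part that GENCODE M21 draws as transcribed.
Ren1: tgtgatacatggtgtgTATAAAagaaggct
Agt: tctccaccccttgagTATAAAtaagcctgc
Among the letters searched on both strands in the 250 bases before each start, TGATGNAA (a C/EBP-ATF composite element, in 3.45% of all promoters) and TGACGTCA (a cAMP response element, in 1.55%) matched in none of the 8 genes. ACGTG (the core of a hypoxia response element, in 16.6%) matched once, in the second of the promoters listed for Egf. A missing match says only that these letters are not in this window.

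Agtr1a (ENSMUSG00000049115, chromosome 13, 30336441 to 30382867, plus strand) encodes the main type 1 angiotensin receptor of the mouse kidney. Its levels were 38.1, 36.0, 39.5, 33.6 and 35.3 CPM in WT and 48.6, 49.1, 49.5, 41.6 and 42.1 CPM in GCERAd. Every GCERAd library was above every WT library, as in 20% of all genes tested in either direction, though the step was small at 1.26-fold (log2 0.33, SE 0.08, adjusted p = 0.00776). It passed in all 10 fits that left out 1 library. TRACK had 33.4, 33.2 and 46.9 CPM and the libraries labelled GCERAdT 36.1, 39.1, 38.1 and 36.9 CPM, both around the WT level. Against GCERAd the libraries labelled GCERAdT were lower by 0.28 on the log2 scale (SE 0.08, adjusted p = 0.0341), a call that was lost in 7 of 9 fits without 1 library, those leaving out GCERAd 1, 2 or 3 or any of the 4 GCERAdT libraries (highest adjusted p = 0.0947). The gene model overlaps Gm48161 on the same strand.

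Beside Ren1, Agt and Agtr1a, 12 genes were listed for the renin-angiotensin system, of which 8 were tested in GCERAd over WT. Of these, 1 rose and 2 fell, beside 14.1% and 13.5% of all genes. Their median log2 change was -0.03 beside -0.00 over all genes. Mme, neprilysin, which degrades angiotensins and natriuretic peptides, fell by 0.63 (SE 0.10, adjusted p = 0.000957). Enpep, the aminopeptidase that shortens angiotensin II, rose by 0.31 (adjusted p = 0.0385). Nr3c2, the mineralocorticoid receptor, fell by 0.24 (adjusted p = 0.0484). Ace, the enzyme that makes angiotensin II, was not called in this comparison (log2 -0.06, adjusted p = 0.828). With the TRACK transgene in both groups, 0 of the 9 tested were called, beside 7.09% of all genes (edgeR, 2 at an unadjusted p under 0.05). The median was 0.05 beside 0.01 over all genes. Ace was at a mean of 291, 279, 335 and 302 CPM in WT, GCERAd, TRACK and GCERAdT.

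Markers of the vessel wall were compared with Ren1. The contractile genes among them summed highest in TRACK, where Ren1 was highest too. These genes also rose in GCERAd over WT, where Ren1 was not called. Acta2, Myh11 and Tagln, contractile genes of smooth muscle, summed to 37.4 to 55.0 CPM in WT, 56.1 to 84.1 in GCERAd, 104 to 130 in TRACK and 65.5 to 85.6 CPM in GCERAdT. All 4 libraries labelled GCERAdT were thus above every WT library for this sum, while 3 of the 4 had 23.3 to 25.4 CPM of Ren1, at or near the lowest WT value. Of the 4 smooth muscle and renin cell markers besides Ren1, 3 rose in GCERAd over WT (Acta2, Myh11 and Tagln), the same 3 rose in TRACK over WT, and 2 fell in GCERAdT over TRACK. Of all genes, 14.1%, 23% and 4.28% were called in those directions. Akr1b7, a marker of renin cells, was at 2.21 to 3.68 CPM in TRACK and at 1.40 to 2.59 CPM in WT (log2 0.74, SE 0.29, adjusted p = 0.0577). It was at 1.13 to 1.90 CPM in GCERAd. In GCERAdT 1 to 4 it was at 1.55, 1.32, 1.21 and 2.92 CPM, highest in GCERAdT 4 as Ren1 was. Gja5, a juxtaglomerular gene, was at 4.02 to 5.48 CPM in WT, 6.38 to 8.88 in TRACK and 3.90 to 6.20 CPM in GCERAdT. In GCERAd it was at 2.36, 2.58, 3.12, 5.36 and 4.51 CPM, with GCERAd 4 and 5 highest, as for Ren1. Rgs5, a regulator of G protein signalling in pericytes and renin cells, was at 40.4 to 49.0 CPM in WT, 33.3 to 89.9 in GCERAd, 125 to 146 in TRACK and 58.8 to 73.8 CPM in GCERAdT. It rose in TRACK over WT by 1.56 (SE 0.09, adjusted p = 1.96e-06) and was lower in GCERAdT over TRACK by 0.99 (SE 0.10, adjusted p = 0.000792). Of the 10 juxtaglomerular and macula densa genes, 6 were tested in TRACK over WT. Of these, 4 rose and 1 fell, beside 23% and 22.6% of all genes, with a median of 0.71 beside -0.01. The 1 that fell, Pde3b, a phosphodiesterase of cyclic AMP, was also the 1 of 5 called in GCERAd over WT (log2 -1.03, SE 0.16, adjusted p = 0.000642), beside 27.6% of all genes. Ptgs2, cyclooxygenase-2 of the macula densa, which drives renin release, was under the minimum at 0.868 to 2.33 CPM in WT and 0.131 to 1.01 CPM in GCERAd, and was called lower in the fit of all genes with a count (log2 -1.58, SE 0.47, adjusted p = 0.0398). Endothelial markers summed to 246 to 276 CPM in WT, 264 to 311 in GCERAd, 425 to 492 in TRACK and 355 to 395 CPM in GCERAdT. The part of these cell markers in the Ren1 values was not tested.

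**Figure D3:**
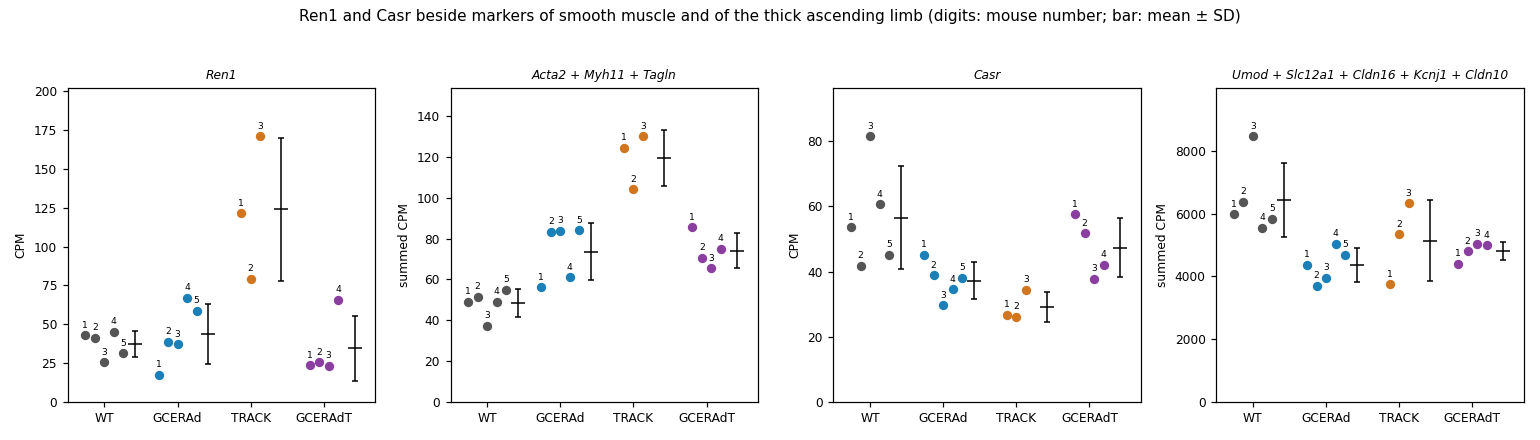
Ren1 beside the summed CPM of Acta2, Myh11 and Tagln, and Casr beside the summed CPM of 5 thick ascending limb markers, by library (linear axes from 0; points carry the mouse number, bars are mean ± SD). Ren1 and the smooth muscle sum are both highest in TRACK, but the sum alone is above WT in all GCERAd libraries. The limb marker sum, mostly Umod, is lower in GCERAd than in WT. In TRACK, where Casr is lowest, it spans 3746 to 6330 CPM, while 3 of the 5 markers were called lower there than in WT, beside 22.6% of all genes.

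Kl (ENSMUSG00000058488, chromosome 5, 150952607 to 150993817, plus strand) encodes klotho. In WT it was at 448, 400.4, 434, 510.2 and 453 CPM. GCERAd 1, 2 and 3 held 777, 820 and 768 CPM, above every other library, whereas GCERAd 4 and 5 held 469 and 446 CPM, within the WT range. The rise over the whole group was 1.46-fold (log2 0.54, SE 0.18, adjusted p = 0.0428), and it was lost when any WT library or GCERAd 1, 2 or 3 was left out (highest adjusted p = 0.0960). Without GCERAd 4 and 5, the low pair, it was 0.82 with an adjusted p of 4.46e-05, but that setting was chosen after the values were seen. With both pairs of possible repeat libraries summed the rise was 0.44 and not called (adjusted p = 0.145). TRACK libraries were the lowest, at 342, 316 and 322 CPM, and lay below every WT library (log2 -0.46, SE 0.08, adjusted p = 0.0016). With library kind as a covariate the change in TRACK was -0.30 and not called (adjusted p = 0.0766). The libraries labelled GCERAdT had 402, 381, 364 and 399 CPM, all above the 3 TRACK values, as in 22.9% of genes tested in either direction (log2 0.26, SE 0.08, adjusted p = 0.0740). DESeq2, the study's tool, called this difference (log2 0.26, adjusted p = 0.00755).

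Pth1r (ENSMUSG00000032492, chromosome 9, 110722085 to 110747145, minus strand) encodes the receptor through which parathyroid hormone acts on the proximal tubule. It was at 513, 463, 558, 432 and 416 CPM in WT and at 540, 646, 554, 625 and 572 CPM in GCERAd. Only WT 3 reached the GCERAd range, and the rise was 1.23-fold (log2 0.30, SE 0.09, adjusted p = 0.0330). It was lost without WT 2, WT 4, WT 5, GCERAd 2 or GCERAd 4 (highest adjusted p = 0.0860). The call was also lost with both pairs of possible repeat libraries summed (log2 0.30, adjusted p = 0.0642). TRACK held 484, 476 and 399.5 CPM and the libraries labelled GCERAdT 489, 559, 480 and 549 CPM, and neither comparison of these groups was called. The model overlaps Myl3 on the other strand.

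Vdr (ENSMUSG00000022479, chromosome 15, 97854425 to 97910630, minus strand) encodes the nuclear receptor of active vitamin D. It was at 297, 258, 236, 276 and 257 CPM in WT, the group of lowest mean, of which only WT 1 reached the range of another group. GCERAd values were 315, 340.4, 294, 512 and 382 CPM, TRACK values 425, 385 and 319 CPM, and those labelled GCERAdT 382, 347, 295 and 424 CPM. The 3 other groups thus overlapped each other and had means of 362 to 376 CPM, against 265 ± 22.8 CPM (n = 5) in WT. The rise was 1.38-fold in GCERAd over WT (log2 0.47, SE 0.14, adjusted p = 0.0239) and 1.42-fold in TRACK over WT (log2 0.50, SE 0.10, adjusted p = 0.00318). The first was lost without WT 3 or WT 5 (highest adjusted p = 0.0582), and both were lost with library kind as a covariate (log2 0.40, adjusted p = 0.0600, and 0.54, adjusted p = 0.0527). These are also the 3 groups whose libraries express Y-linked genes.

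The list around klotho, FGF23, vitamin D and parathyroid hormone held 20 genes besides Kl, Pth1r and Vdr, of which 17 were tested. In GCERAd over WT, 3 rose and 1 fell, beside 14.1% and 13.5% of all genes, with a median of 0.02. The 1 that fell was Gc, the vitamin D binding protein, with 99.0 to 137 CPM in WT and 22.1 to 36.2 CPM in GCERAd (log2 -2.07, SE 0.15, adjusted p = 3.23e-06). Rxra, the partner of the vitamin D receptor on DNA, rose by 0.51 (SE 0.10, adjusted p = 0.00304), with every GCERAd library above WT. Slc20a1, a phosphate transporter of most cells, rose by 0.52 (SE 0.17, adjusted p = 0.0432). Between TRACK and the libraries labelled GCERAdT, 1 gene rose and 3 fell, beside 2.81% and 4.28% of all genes, with a median of -0.11. Slc34a3, a phosphate transporter of the proximal tubule brush border, was higher by 0.56 (SE 0.12, adjusted p = 0.0220). Slc20a1 was lower by 0.64 (adjusted p = 0.0292), Rxra by 0.46 (adjusted p = 0.0240) and Gc by 0.38 (adjusted p = 0.0471). Klb, the klotho homologue, was called higher in the fit of all genes (adjusted p = 0.0387) at levels of at most 0.0185 CPM in TRACK and 0.0344 to 0.380 CPM in GCERAdT, too few counts for a fold. For Rxra the difference between both ATF4 contrasts was itself called (log2 -0.97, SE 0.15, adjusted p = 0.000226).

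The genes that act directly on these members were less uniform. Fgfr1, the receptor that klotho converts for FGF23, had means of 55.5, 50.3, 48.9 and 43.7 CPM in WT, GCERAd, TRACK and GCERAdT and was called in neither ATF4 comparison (adjusted p = 0.184 and 0.499). Cyp27b1, the 1-alpha-hydroxylase, varied widely within groups. It was at 3.28 to 14.7 CPM in WT, and at 5.48, 7.52, 7.96, 2.87 and 35.3 CPM in GCERAd (log2 0.38, SE 0.59, adjusted p = 0.671). Cyp24a1, the enzyme that breaks active vitamin D down, was at 103 to 166 CPM in WT and at 71.7, 141, 133, 127 and 29.1 CPM in GCERAd (log2 -0.51, SE 0.34, adjusted p = 0.294). GCERAd 5 thus had the highest Cyp27b1 and the lowest Cyp24a1 of all 17 libraries. Slc34a1, the main phosphate transporter of the proximal tubule, was singled out after its values were seen: it was at 4045, 4960 and 4254 CPM in GCERAd 1 to 3, at 3009 and 2894 CPM in GCERAd 4 and 5 and at 2707 to 3418 CPM in WT, the same split as that of Kl. It fell in TRACK over WT by 1.52 (SE 0.14, adjusted p = 2.23e-05), where Kl fell as well.

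Casr (ENSMUSG00000051980, chromosome 16, 36493696 to 36562141, minus strand) encodes the calcium-sensing receptor. WT cortices had 53.6, 41.7, 81.6, 60.6 and 45.1 CPM, and GCERAd cortices 45.1, 38.9, 29.6, 34.6 and 38.0 CPM. Only GCERAd 1 reached into the WT range, and the fall was 0.657-fold (log2 -0.61, SE 0.17, adjusted p = 0.0207), called in all 10 fits that left out 1 library but not without both GCERAd 4 and 5 (log2 -0.57, adjusted p = 0.0604). TRACK had the lowest values, 26.7, 26.2 and 34.4 CPM, below every WT library (log2 -0.96, SE 0.20, adjusted p = 0.00374). Libraries labelled GCERAdT had 57.6, 51.7, 37.8 and 42.1 CPM, all above the TRACK values and overlapping WT (log2 0.72 over TRACK, SE 0.16, adjusted p = 0.0284). That call was lost without TRACK 1, TRACK 2, GCERAdT 1 or GCERAdT 2 (highest adjusted p = 0.116), and both calls against TRACK were lost with library kind as a covariate (-0.52 and 0.47, adjusted p = 0.188 and 0.0948). In GCERAdT over GCERAd, whose equal numbers deviated together and shared library kind, Casr was at 0.36 (adjusted p = 0.104). It was called with the number as a replicate block (0.36, adjusted p = 0.00446).

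Besides Casr, 10 calcium transport genes were listed. In GCERAd over WT, 4 of the 8 tested fell, beside 13.5% of all genes, with a median of -0.45, and in TRACK over WT 7 of 8 fell, beside 22.6%, with a median of -0.85. Cldn19, which with Cldn16 forms the divalent cation path of the thick ascending limb, went from 44.1 to 90.2 CPM in WT to 23.4 to 28.6 CPM in GCERAd (log2 -1.29, SE 0.16, adjusted p = 0.000135). Cldn16 itself fell by 0.40 (SE 0.13, adjusted p = 0.0347). S100g, the small calcium buffer calbindin-D9k, fell by 0.81 (SE 0.14, adjusted p = 0.00165). Against TRACK, 2 of 7 were higher in the libraries labelled GCERAdT, beside 2.81% of all genes, with a median of 0.28, and these were Cldn19 (0.53, SE 0.11, adjusted p = 0.0184) and Cldn16 (0.53, SE 0.12, adjusted p = 0.0298). Slc8a1, a sodium-calcium exchanger of the distal nephron, under the minimum in both of these groups, was also higher in the fit of all genes (log2 0.79, SE 0.18, adjusted p = 0.0114). Markers of the distal nephron were lower in GCERAd than in WT as well. The 5 thick ascending limb markers, Cldn16 among them, summed to 5543 to 8470 CPM in WT, 3697 to 5042 in GCERAd, 3746 to 6330 in TRACK and 4400 to 5031 CPM in GCERAdT. The TRACK sums thus reached above those of GCERAdT, where Casr was higher. Umod was the largest part of these sums, at 2761, 3645 and 5108 CPM in TRACK and 2986 to 3513 CPM in GCERAdT. Kcnj1, Cldn10 and Cldn16 were each lower in every TRACK library than in every GCERAdT library, while Umod and Slc12a1 overlapped. The median log2 change of the 5 markers in GCERAdT over TRACK was 0.47. In GCERAd over WT 4 of these 5 fell, and 2 rose in GCERAdT over TRACK, beside 13.5% and 2.81% of all genes. In TRACK over WT 3 of the 5 fell (Slc12a1, Cldn16 and Kcnj1), beside 22.6%, with a median of -0.71. The 5 distal convoluted and connecting tubule markers summed to 2040 to 3253, 1336 to 2324, 1171 to 1385 and 1447 to 2336 CPM in the same order. Of these, 2 fell in GCERAd over WT and all 5 fell in TRACK over WT (median -1.04), beside 13.5% and 22.6%. In GCERAdT over TRACK 1 rose, beside 2.81%. The 10 proximal tubule markers summed to 10760 to 13100 CPM in WT, 13810 to 16380 in GCERAd, 8546 to 9993 in TRACK and 8160 to 9496 CPM in GCERAdT. Of the 10, 3 rose in GCERAd over WT, beside 14.1% of all genes. In TRACK over WT 1 rose and 5 fell, beside 23% and 22.6%. Their part in the Casr values was not tested.

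Egf (ENSMUSG00000028017, chromosome 3, 129677565 to 129755316, minus strand) was the most counted of the 9 genes and the least changed. It was at 1382, 1408, 1900, 1505 and 1344 CPM in WT, and at 1213, 1146, 1193, 1851 and 1667 CPM in GCERAd. GCERAd 1 to 3 lay below every WT library and GCERAd 4 and 5 above 4 of the 5, so the group mean hid a split (log2 -0.10, SE 0.15, adjusted p = 0.646). Without GCERAd 4 and 5, a setting chosen after the values were seen, the change was -0.34 (adjusted p = 0.0350). TRACK had 1515, 1777 and 1399 CPM and the libraries labelled GCERAdT 1785, 1579, 1543 and 1553 CPM, and no comparison between groups called Egf, with adjusted p-values between 0.376 and 0.757. The gene model overlaps 4 others, 3 of them on the opposite strand, and the strand setting of the counting is not given in the sources used here.

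Among 12 genes listed with Egf, its receptors and the other ligands, 10 were tested in GCERAd over WT. Of these, 2 rose and 4 fell, beside 14.1% and 13.5% of all genes, with a median of -0.13. Btc, betacellulin, an EGF receptor ligand, fell by 0.97 (SE 0.29, adjusted p = 0.0268). Erbb4, a receptor for neuregulins and betacellulin, fell by 0.68 (SE 0.11, adjusted p = 0.00126). Trpm6, the magnesium channel of the distal convoluted tubule that EGF stimulates, fell by 0.57 (SE 0.13, adjusted p = 0.00627). Hbegf, another ligand, rose by 0.53 (SE 0.13, adjusted p = 0.00919). Egfr, the receptor of Egf, had means of 52.1, 67.1, 40.7 and 43.1 CPM in WT, GCERAd, TRACK and GCERAdT, with a log2 value of 0.36 in GCERAd over WT that was not called (adjusted p = 0.0746). For GCERAdT over TRACK 0 of 11 were called, beside 7.09% of all genes (edgeR, 2 at an unadjusted p under 0.05). The lowest adjusted p was 0.114, for Tgfa (log2 -0.50).

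Epo (ENSMUSG00000029711, chromosome 5, 137483020 to 137533242, minus strand) was close to the floor of the assay. Its counts were 0, 0, 1, 11 and 0 in WT, 7, 1, 4, 3 and 0 in GCERAd, 4, 10 and 0 in TRACK, and 7, 0, 1 and 6 in the libraries labelled GCERAdT. Each group had at least 1 library without a count, which at this depth allows up to 3 counts, so no fold is given. The annotated model overlaps 7 other genes, some on the same strand, so these counts are uncertain. In fits of all genes with a count, which called 11.7% of genes in GCERAd over WT, 4.75% in GCERAdT over TRACK, 22.9% in TRACK over WT, 7.86% in GCERAdT over GCERAd and 9.95% for the difference of the ATF4 contrasts, adjusted p-values for Epo were between 0.717 and 0.996, which does not show equal levels at such counts.

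The oxygen-sensing genes around Epo were well measured. Egln3, a prolyl hydroxylase that HIF induces and that marks HIF for removal, was at 14.3 to 16.7 CPM in WT, 16.0 to 33.5 in GCERAd, 106 to 195 in TRACK and 189 to 225 CPM in GCERAdT. It rose 10.3-fold in TRACK over WT (log2 3.37, SE 0.17, adjusted p = 7.28e-07) and by 0.54 in GCERAd over WT (SE 0.17, adjusted p = 0.0345), where GCERAd 4 and 5 were the highest at 33.5 and 27.5 CPM. Epas1, which encodes HIF2A, the factor that drives Epo in the kidney, was lower in GCERAdT over TRACK by 0.36 (SE 0.09, adjusted p = 0.0403) after a rise in TRACK over WT of 0.48 (SE 0.07, adjusted p = 0.000399). Of the 10 genes of the list besides Epo, 1 of 9 tested was called in GCERAd over WT (median 0.04), 1 of 10 in GCERAdT over TRACK (median -0.03) and 5 of 10 in TRACK over WT (median 0.18). The shares of all genes called were 27.6%, 7.09% and 45.6%.

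**Figure D4:**
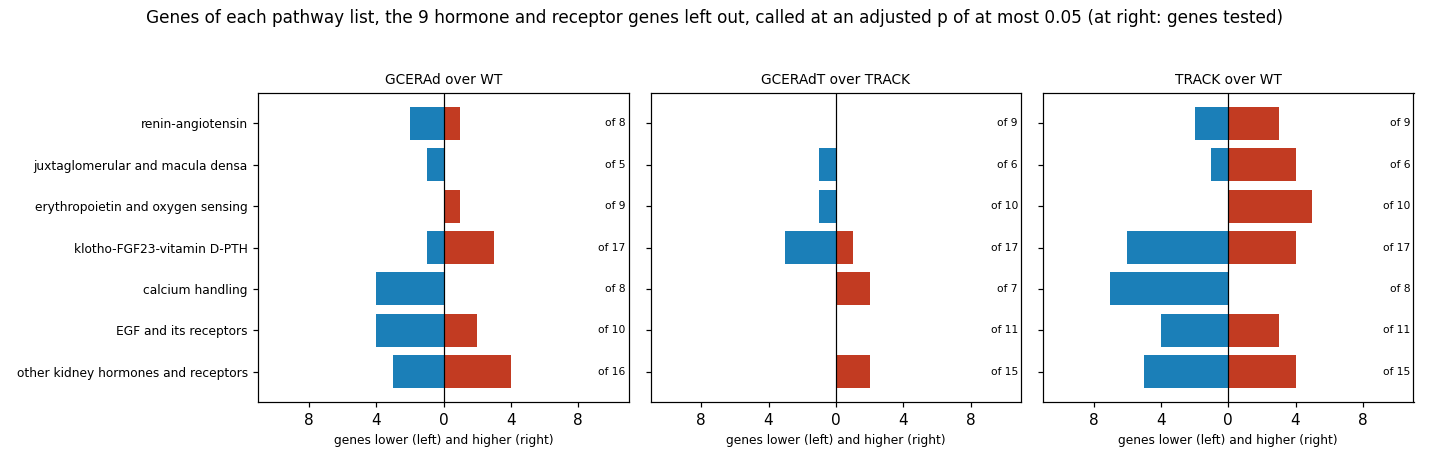
Number of genes of each pathway list, without the 9 genes described here, called lower (left, blue) and higher (right, red) in 3 comparisons, with the number tested at the right of each bar. Of the calcium handling genes, 4 of 8 fell in GCERAd over WT and 7 of 8 in TRACK over WT, and 2 of 7 rose in GCERAdT over TRACK, where 13.5%, 22.6% and 2.81% of all genes tested were called in those directions.

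Other hormones and hormone receptors of the kidney numbered 20 genes, of which 16 were tested in GCERAd over WT. Of these, 4 rose and 3 fell, beside 14.1% and 13.5% of all genes, with a median of 0.07. Prlr, the prolactin receptor, had the largest change of the list, from 238 to 341 CPM in WT to 23.2 to 40.2 CPM in GCERAd (log2 -3.26, SE 0.17, adjusted p = 3.03e-07), and it was at 4.37 to 44.1 CPM in TRACK. Esr1, the estrogen receptor alpha, rose 2.83-fold (log2 SE 0.14, adjusted p = 1.6e-05). The vasopressin V2 receptor Avpr2, which drives water uptake in the collecting duct, fell by 0.90 (SE 0.11, adjusted p = 0.000136). It is 1 of 5 markers of collecting duct principal cells, all of which fell in GCERAd over WT, beside 13.5% of all genes. They summed to 914 to 1020 CPM in WT and 375 to 610.5 CPM in GCERAd. The part of this in the receptor's change was not tested. Igfbp1, a binding protein of insulin-like growth factors, fell by 0.86 (SE 0.21, adjusted p = 0.00959). The libraries labelled GCERAdT were higher than TRACK in 2 of 15 tested genes, beside 2.81% of all genes. Both were vasopressin receptors: Avpr1a by 1.41 (SE 0.18, adjusted p = 0.00284) and Avpr2 by 0.73 (SE 0.14, adjusted p = 0.0156). The list of 9 genes whose level differs between the sexes in mouse kidney summed to 285 to 576 CPM in WT and 1178 to 3346 CPM in the other groups, a shift in the same libraries as that of Xist. The sum hides 2 directions. In GCERAd over WT 6 of the 9 rose and 3 fell (Slc7a12, Slc22a29 and Abcc3), beside 14.1% and 13.5% of all genes. The same 6 rose and the same 3 fell in TRACK over WT, beside 23% and 22.6%. The list was chosen with earlier results of these data known. It includes Slc22a30, Slc7a13, Slc7a12 and Slc22a29, which the study names as changed between GCERAd and WT. These counts were thus set in part by the choice of genes.

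The ATF4 contrasts of both backgrounds were compared directly over all 17 libraries, GCERAdT over TRACK minus GCERAd over WT, which called 25.1% of 12208 genes (12.3% higher and 12.8% lower). Ren1 and Casr were called. For Ren1 the difference was -2.04 (SE 0.53, adjusted p = 0.0104), between a log2 change of 0.22 without and of -1.84 with the TRACK transgene. Casr differed by 1.33 (SE 0.27, adjusted p = 0.00182), as it fell in one contrast and rose in the other. Both passed in all 17 fits that left out 1 library, and Casr but not Ren1 passed with library kind as a covariate (Ren1 -1.39, adjusted p = 0.0704). Agt was just outside the threshold (log2 -0.77, SE 0.28, adjusted p = 0.0505) and was called with DESeq2 (-0.78, adjusted p = 0.0193), RLE scaling (adjusted p = 0.0479), no minimum (0.0480) and a minimum of 1 CPM (0.0489), and the other 5 tested genes had adjusted p-values between 0.0904 and 0.731. Because Atf4 was not lower in the libraries labelled GCERAdT, these differences are differences between labels. WT alone was high in Xist, so what goes with that split enters them through GCERAd over WT and cannot be told apart. The same test called all 9 genes of sex-differing level in mouse kidney, 3 higher and 6 lower. In GCERAdT over TRACK 0 of the 9 were called, beside 7.09% of all genes (edgeR, 2 at an unadjusted p under 0.05), so these calls repeat those of GCERAd over WT.

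Within the GCERAd group the genes did not vary together. GCERAd 4 and 5 were both above GCERAd 1 to 3 for 4 of the 8 tested genes (Ren1, Agt, Vdr and Egf), both below for Agtr1a and Kl, and mixed with them for Pth1r and Casr. Kl thus ran against Agt and Egf inside this group. Over the 17 libraries, after centring each group on its own mean, the correlation of log2(CPM + 1) was -0.74 for Kl with Agt, -0.72 for Kl with Egf and 0.64 for Agt with Egf; the points share library and depth, and these values are given as a description. The genes whose pattern within groups was most like a member by the same measure, among 13302 genes, were Hmcn2 and Evc for Kl (r = 0.96 and 0.95), Cadm1, Man1a and Slc2a2 for Ren1 (0.90, 0.89 and 0.88), Kit, Dhrs3 and Gadd45b for Agt (0.94, 0.91 and 0.90), and Acad12, Entpd5 and Atg14 for Egf (0.90, 0.89 and 0.89). Without centring, r over the 17 libraries was, in the same order, 0.98 and 0.96 for Kl and 0.19, 0.57 and 0.75 for Ren1. It was 0.76, 0.20 and 0.91 for Agt and 0.41, 0.55 and 0.64 for Egf.

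**Figure D5:**
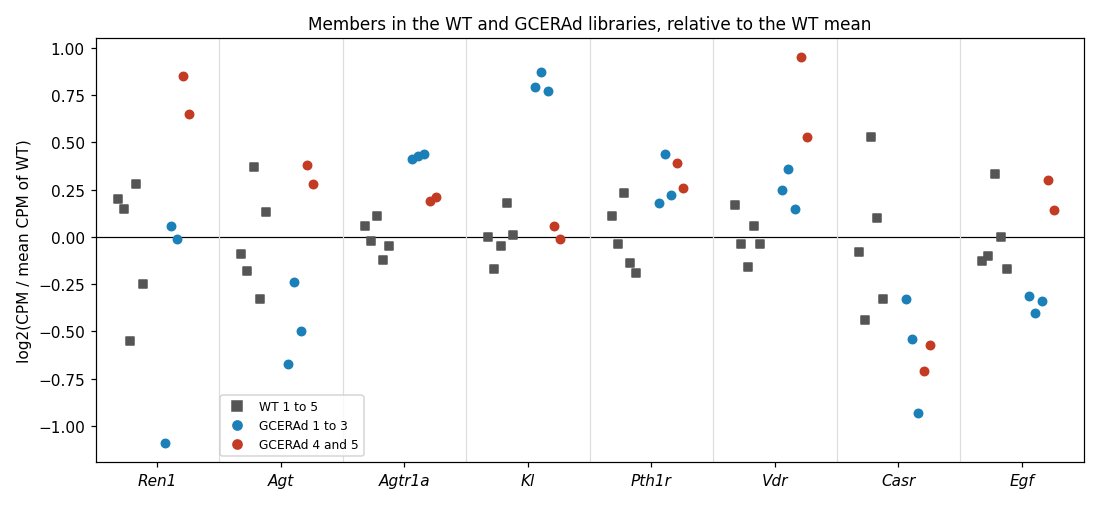
Log2 ratio of each gene's CPM to the WT mean (vertical axis) in the WT libraries (squares), GCERAd 1 to 3 (blue) and GCERAd 4 and 5 (red). For Kl the blue points lie at 0.77 to 0.87 and the red points at 0.06 and -0.01, while for Ren1, Agt, Vdr and Egf both red points lie above the blue ones.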

How the data were processed

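Kidney cortex RNA of 17 mouse libraries was measured (5 WT, 5 GCERAd, 3 TRACK and 4 GCERAdT, grouped by their labels). The deposited values were read counts per gene, without normalization, that the authors made from poly(A)-selected, stranded, paired-end libraries with bcl2fastq 2.20, Cutadapt, STAR on GRCm38 and HTSeq; the annotation release and strand setting of the counting are not given in the sources used here. Totals were 53688512 to 71364561 counts per library, and limits set by 3 counts cover counting error only.

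From these counts, CPM on a TMM scale, FPKM (merged exon lengths of GENCODE M21, which held 48435 of 48795 identifiers) and fits in edgeR 4.0.16 under R 4.3.3 were computed: quasi-likelihood test, TMM scaling, Benjamini-Hochberg adjustment over all genes with a mean of at least 1 FPKM in either group, called at an adjusted p of at most 0.05. Epo came from fits of all genes with a count. The study states DESeq2; DESeq2 1.42.0 was an alternative here. Nothing states that libraries came from separate mice beyond their labels, so p-values measure the spread between libraries, which may be technical. The members and lists were chosen with earlier results of these data known. Named genes are the 9 members, the 4 largest called changes of each list in each ATF4 comparison, Ace, Cyp27b1, Cyp24a1, Fgfr1, Egfr, Egln3 and Epas1 whatever their values, the 3 genes most like each of Ren1, Kl, Agt and Egf, and Atf4, except that 2 genes this rule names are not reported here; Slc34a1 and, in TRACK over WT and the vessel wall markers, further list members were added after their values were seen.

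Alternatives were DESeq2, RLE scaling, no minimum or a mean of at least 1 CPM, the number of each mouse as block (replicate block), 1 fit of all 17 libraries, possible repeat libraries summed and each library left out; library kind, GCERAd 1 to 3 only and the GCERAdT pair of repeats were added after seeing the data. Same-numbered libraries deviated together in GCERAdT over GCERAd alone (correlations of 0.38 to 0.49 in 4 of 4 pairs, at most 0.04 elsewhere). The equal numbers also shared library kind there. The numbers come from the labels and count mice within a group, so this check cannot tell a pairing from library kind. The fits were tested on simulated data first. Proteomics and metabolomics were not analysed here.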

Additional observations from a re-analysis of the deposited data

Results flagged for a closer look

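Within-group gaps were examined for the 8 tested genes in WT, GCERAd and the libraries labelled GCERAdT, 24 groups of values in all, and chance alone puts a sample apart in about 1 group in 20. In 3 of them 1 library lay far from the others. Ren1 in GCERAdT 4 was at 65.6 CPM against 23.3 to 25.4 CPM in GCERAdT 1 to 3. Egf in WT 3 was at 1900 CPM against 1344 to 1505 CPM in the other WT libraries, and Egf in GCERAdT 1 was at 1785 CPM against 1543 to 1579 CPM.

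The effect labelled ATF4 KO differed between the backgrounds, by the interaction test over all 17 libraries, for Ren1 (log2 -2.04, adjusted p = 0.0104), Casr (1.33, adjusted p = 0.00182) and Atf4 itself (0.55, adjusted p = 0.0210, edgeR). Of the smooth muscle and renin cell markers besides Ren1, 3 of 4 were lower by the same test, beside 12.8% of all genes. Of the thick ascending limb markers 4 of 5 were higher, beside 12.3%. Their part in the Ren1 and Casr values was not tested. All 9 genes of sex-differing level in mouse kidney, a list chosen with earlier results of these data known, were called by this test too. What goes with the Xist split of WT from the other groups cannot be told apart here.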

How the results depend on the processing

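Of 392 single-gene values under the alternatives other than leaving out 1 library, 319 kept their direction and their side of the threshold, 39 lost the call, 15 gained it and 19 changed sign. The number of members called was 5 in GCERAd over WT and became 2 with the replicate block (Agtr1a and Vdr), 3 with possible repeats summed, 2 with kind A only and 0 with kind B only (edgeR; 0 at an unadjusted p under 0.05, with a single WT library of that kind). For GCERAdT over TRACK it went from 3 to 1 (Agt) with library kind as a covariate and with kind B only, to 2 with the replicate block (Casr lost, adjusted p = 0.0642) and with 3 repeats summed (Ren1 lost), and to 4 with DESeq2 (Kl added). In TRACK over WT it went from 5 to 2 with the covariate and 1 with kind B only. In GCERAdT over GCERAd it went from 2 to 1 with no minimum and with all 17 libraries in 1 fit (Kl in both), to 0 with repeats summed in 2 or 3 pairs (edgeR; 3 at an unadjusted p under 0.05 each), to 0 with kind B only (0 unadjusted), to 5 with kind A only and to 4 without GCERAd 4 and 5. The difference of contrasts went from 2 to 1 (Casr) with the covariate; DESeq2, RLE scaling, no minimum and a minimum of 1 CPM each added Agt, and the replicate block added Vdr (log2 -0.57, adjusted p = 0.0128).

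All genes called in GCERAd over WT (3198) became 2106 with the replicate block and 98 with kind B only; in GCERAdT over TRACK (846) 1562 with DESeq2, 462 with the covariate, 221 with kind B only and 498 with 3 repeats summed; in TRACK over WT (5458) 3431 with the block, 2776 with the covariate and 1475 with kind B only; in GCERAdT over GCERAd (2266) 3770 with the block, 349 with kind B only and 1168 with 3 repeats summed. Same-numbered libraries deviated together in the last comparison only, where the block also added Casr. Equal numbers share library kind there, so the check cannot tell a pairing of mice from library kind.

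Signs changed for values that were not called. In GCERAd over WT, Ren1 was -0.11 with the covariate, -0.36 with kind A only and -0.26 without GCERAd 4 and 5, while Agt was 0.26 and Egf 0.13 with kind B only. Over TRACK, the GCERAdT value of Agtr1a was -0.01 with no minimum, -0.00 with a minimum of 1 CPM and -0.01 with 3 repeats summed, where Vdr was 0.01. In TRACK over WT, Agtr1a was -0.02 with the replicate block. In GCERAdT over GCERAd, Vdr was 0.02 with the block, 0.01 with all 17 libraries, 0.01 with the covariate, 0.18 with kind A only and 0.22 without GCERAd 4 and 5, Agt was -0.02 and -0.01 with 2 and 3 repeats summed and -0.18 with kind B only, and Ren1 was 0.17 without GCERAd 4 and 5. The cause of these changes was not tested.

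Leaving out 1 library gave 2 to 5 members called in GCERAd over WT (2477 to 3246 genes in all), 1 to 3 in GCERAdT over TRACK (379 to 1424), 5 in each fit of TRACK over WT (4101 to 6041), 0 to 2 in GCERAdT over GCERAd (1427 to 2336; edgeR, 2 or 3 members at an unadjusted p under 0.05 where the count was 0) and 2 to 3 for the difference (2205 to 3303). Agt entered that difference without WT 3, GCERAd 1 or GCERAd 3 (lowest adjusted p = 0.0167). Kl in GCERAdT over GCERAd lost its call without GCERAd 2 or 3 or GCERAdT 1, 2 or 3 (highest adjusted p = 0.0649). Signs of uncalled values turned for Agt without WT 3 or GCERAd 1 (-0.24 to 0.01) in GCERAd over WT. They turned in GCERAdT over TRACK for Agtr1a (-0.08 to 0.20) and Vdr (-0.13 to 0.05). In TRACK over WT they turned for Agtr1a (-0.13 to 0.14), Pth1r (-0.12 to 0.01) and Egf (-0.05 to 0.14), and in GCERAdT over GCERAd for Agt (-0.08 to 0.18) and Vdr (-0.09 to 0.15). Depth limited Epo alone among the members.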

Other observations

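Some hormone genes outside the ATF4 comparisons were higher in both groups with the TRACK transgene; they were picked after their values were seen. Areg, amphiregulin, an EGF receptor ligand, had no count in any of the WT and GCERAd libraries and was at 1.07 to 3.44 CPM in TRACK and 1.11 to 2.78 CPM in GCERAdT. Mas1, a receptor of angiotensin 1-7, was at 0.0165 to 1.04 CPM in WT, 0.113 to 3.28 in GCERAd, 2.46 to 7.04 in TRACK and 6.86 to 9.23 CPM in GCERAdT. Adm, adrenomedullin, a vasodilator peptide, was at 4.36 to 7.57 CPM in WT and 12.0 to 19.1 CPM in TRACK (log2 1.40, SE 0.19, adjusted p = 0.000293, edgeR), and Ednrb, the endothelin B receptor, at 28.0 to 45.2 and 69.4 to 108 CPM (log2 1.29, SE 0.17, adjusted p = 0.000242, edgeR).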
